A study of Mus musculus with 2 samples.

Results

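The sites described here are the vitamin D receptor (VDR) peaks of mouse embryonic left ventricle that were called in both maternal diets and had their summit near an end of a gene. They were chosen by measured values: a peak of the normal-diet list was kept when it overlapped a peak of the deficient-diet list by at least 1 bp and its summit lay within 1 kb of either end of a RefSeq gene span. Only autosomes and the X chromosome were used, and fixed 100-kb bins that held 10 or more peaks of either list were left out. In all, 1406 of the 23456 normal-diet peaks met the rule, and 1417 deficient-diet peaks overlapped them. The overlap, the closeness to a gene end and the sparse surroundings are therefore properties of the selection and not findings.

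The study profiled DNA bound by VDR in the left ventricle of mouse embryos at stage E16.5, with chromatin immunoprecipitation and sequencing (ChIP-seq). One group came from a mother on a normal diet and the other from a mother on a diet deficient in vitamin D, with 1 library each; the title ties a lack of vitamin D in the mother to how the heart forms and to the folding of chromatin. The labels name no strain, genotype, sex, antibody, input control or number of mothers and embryos. Diet and library cannot be told apart, so no p-value was computed, and every value below describes these 2 libraries. A peak list holds no expression values, so the labelled tissue could not be checked against its marker genes.

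VDR is a nuclear receptor that is activated by the hormonal form of vitamin D. It binds DNA mainly as a heterodimer with a retinoid X receptor (RXR), at direct repeats of a short half-site separated by a gap of 3 bases, a layout called DR3. Well studied responsive genes include those for vitamin D breakdown and for calcium transport, and many nuclear receptor sites lie far from genes, while those near a gene start are the ones most readily tied to that gene. Here a gene end means either end of the annotated span, the start of transcription or the end.

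The sequences just before the gene start are shown for the best placed sites, as examples of the base composition and motif matches counted below. The counted windows also hold the first 50 bases of the gene, which are not printed. The order of sites was set by the worse of a peak's places in the 2 lists when ranked by the authors' −log10 q, where q is a p-value corrected for the number of tests. Of the 8 best placed sites in the promoter window of a protein-coding gene, 7 are printed; the window of the eighth, Knop1, runs into the span of the neighbouring gene Iqck and is only named. Each line gives the 250 bases upstream of the gene start, 5′ to 3′ on the gene's own strand, from RefSeq on build GRCm38.p6 (the build of the files, mm10). Capitals mark matches, on either strand, to the GC box GGGCGG, the ETS motif CCGGAAG and the E-box CACGTG.
AU041133 (chr10:82127763-82128012, + strand): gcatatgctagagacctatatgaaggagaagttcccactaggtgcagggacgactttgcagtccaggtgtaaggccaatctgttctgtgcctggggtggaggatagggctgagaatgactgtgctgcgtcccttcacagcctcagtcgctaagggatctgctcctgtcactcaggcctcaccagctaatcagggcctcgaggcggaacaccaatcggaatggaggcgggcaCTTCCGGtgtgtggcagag
Zfp979 (chr4:147642509-147642758, - strand): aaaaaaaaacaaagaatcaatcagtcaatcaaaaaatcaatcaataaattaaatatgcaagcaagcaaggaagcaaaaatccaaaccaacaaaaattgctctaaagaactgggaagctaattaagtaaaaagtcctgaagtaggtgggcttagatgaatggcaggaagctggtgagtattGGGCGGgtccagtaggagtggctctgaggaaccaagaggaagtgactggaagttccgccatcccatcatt
Topbp1 (chr9:103305077-103305326, + strand): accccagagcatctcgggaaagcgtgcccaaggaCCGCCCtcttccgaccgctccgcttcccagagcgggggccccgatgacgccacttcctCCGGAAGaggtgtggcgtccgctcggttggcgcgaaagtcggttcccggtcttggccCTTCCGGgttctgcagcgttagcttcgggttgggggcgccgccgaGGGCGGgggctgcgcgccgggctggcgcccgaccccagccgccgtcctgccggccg
Fkbp5 (chr17:28486150-28486399, - strand): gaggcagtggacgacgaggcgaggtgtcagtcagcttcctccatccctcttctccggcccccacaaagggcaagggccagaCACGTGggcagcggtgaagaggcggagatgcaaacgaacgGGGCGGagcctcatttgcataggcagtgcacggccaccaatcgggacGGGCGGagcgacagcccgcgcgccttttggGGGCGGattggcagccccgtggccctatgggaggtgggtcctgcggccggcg
Bbs7 (chr3:36613390-36613639, - strand): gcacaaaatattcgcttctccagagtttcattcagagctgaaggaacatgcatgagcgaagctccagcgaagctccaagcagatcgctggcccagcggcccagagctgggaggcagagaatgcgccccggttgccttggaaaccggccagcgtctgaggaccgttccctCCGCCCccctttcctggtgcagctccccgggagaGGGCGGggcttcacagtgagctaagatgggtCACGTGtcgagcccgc
Sgsm3 (chr15:80977515-80977764, + strand): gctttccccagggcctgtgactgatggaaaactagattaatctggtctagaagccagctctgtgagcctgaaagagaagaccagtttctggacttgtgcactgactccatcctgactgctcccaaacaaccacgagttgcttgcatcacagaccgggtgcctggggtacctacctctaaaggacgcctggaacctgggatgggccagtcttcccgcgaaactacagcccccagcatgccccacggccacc
Tmem54 (chr4:129105280-129105529, + strand): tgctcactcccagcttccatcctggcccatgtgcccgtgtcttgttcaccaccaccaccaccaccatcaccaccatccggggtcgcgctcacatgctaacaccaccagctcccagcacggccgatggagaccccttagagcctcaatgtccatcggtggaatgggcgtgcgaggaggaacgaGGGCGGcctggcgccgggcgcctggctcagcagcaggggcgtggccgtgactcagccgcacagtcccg

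These promoters differed widely in composition. The stretch before Topbp1, which encodes a scaffold protein of DNA replication and its checkpoint, held 33 CpG dinucleotides at 73.2% GC, with 2 GC boxes and 2 ETS matches. The stretch before Fkbp5, a co-chaperone of steroid hormone receptors, held 23 CpG, 3 GC boxes and 1 E-box. The stretch before Bbs7, a subunit of the BBSome complex of cilia, held 16 CpG, 2 GC boxes, 1 E-box and 1 match to a VDR half-site, the sole such match among the 7 printed stretches. The AT-rich stretch before Zfp979, a zinc-finger gene, held 2 CpG at 39.6% GC, and that of Sgsm3, a modulator of small GTPases, held 6 CpG and none of the 3 marked motifs.

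The peaks at these promoters were low in both lists. Peak height is given as the summit pileup, the number of sequenced fragments that cover the summit, recovered from the authors' fold enrichment and −log10 p. Topbp1 had 18 fragments with the normal diet and 31 with the deficient diet, with summits 216 and 314 bp upstream of the start. Fkbp5 had 22 and 25 fragments, with summits 217 and 541 bp upstream. Bbs7 had 18 and 27 fragments, and its summits, 106 and 104 bp upstream, lay almost on each other. Zfp979 was the tallest of the set, at 34 and 44 fragments, but its local background was also raised, at 7.20 and 14.6 fragments against a lowest value of 2.65 and 5.38 fragments in the 2 lists. The summits of Zfp979 lay 41 and 113 bp inside the gene, outside the printed stretch, as did those of Tmem54, at 44 and 156 bp. For AU041133 and Sgsm3 the deficient-diet summits lay inside the gene, at 130 and 63 bp, and the normal-diet summits upstream.

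The share of peaks with a partner gives the background against which the selection was made. Outside the crowded bins it was 33.0% of the normal-diet peaks (6879 of 20846). Near gene ends the share was 29.7% (95% exact Clopper-Pearson interval 28.4 to 31.1%, 1406 of 4727 peaks), and elsewhere inside genes it was also 29.7% (28.8 to 30.7%, 2712 of 9129). Between genes it was 39.5% (38.4 to 40.7%, 2761 of 6990). All intervals here cover counting error within 1 library per diet and not variation between animals. A further 3321 normal-diet and 4593 deficient-diet peaks lay near a gene end without a partner, and they serve as the comparison below.

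Within the gene-end peaks, the share with a partner varied little by position. At gene starts it was 27.6% for summits upstream (24.3 to 31.1%, n = 684) and 31.0% for summits inside the gene (28.9 to 33.1%, n = 1949). For summits in the first 400 bp of the gene it was 32.1%. At the other end of the gene it was 28.6% for summits inside (n = 511) and 27.5% for summits downstream (n = 222). These intervals overlap one another.

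Gene-end sites found in both diets were mostly low peaks. In the normal-diet list their summit pileup had a median of 16 fragments, with 14 and 20 at the 10th and 90th percentiles and a range from 11 to 317. Their partners had a median of 23 fragments, 20 and 28 at the same percentiles, and a range from 16 to 323. The authors' fold enrichment had a median of 4.51 in the normal-diet list and 3.45 among the partners, and the −log10 q had medians of 4.87 and 4.36. Values of the 2 lists are on scales of their own, since the lowest background of a list, read as its genome-wide level, was 2.65 fragments with the normal diet and 5.38 with the deficient diet, a ratio of 2.03.

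Peaks with no partner were nearly as tall. Normal-diet gene-end peaks without a partner had the same median pileup of 16 fragments, a median −log10 q of 4.28 and a median width of 229 bp, against 262 bp for the shared sites. Deficient-diet gene-end peaks without a partner had a median of 22 fragments, a −log10 q of 3.95 and a width of 210 bp, against 248 bp for the partners. A wider peak overlaps more easily, so width is tied to the rule. Shared peaks far from gene ends had medians of 16 (inside genes) and 17 (between genes) fragments in the normal-diet list.

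The partners' summits often lay some way apart. Where a site had more than 1 partner, the one with the best −log10 q was used. The median distance between the summits of overlapping peaks was 98 bp, with 15 bp and 252 bp at the 10th and 90th percentiles and a maximum of 1018 bp. Summits were within 50 bp in 400 sites (28.4%), within 100 bp in 724 sites (51.5%) and within 200 bp in 1171 sites (83.3%). The overlap had a median of 181 bp, and 908 sites (64.6%) overlapped by at least 50% of both peaks. In 25 sites the normal-diet peak overlapped 2 deficient-diet peaks.

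At most sites the heights spanned a narrow range in both lists. At the lowest background in both stood 572 sites (40.7%), with 11 to 26 normal-diet fragments (median 16) and 16 to 35 deficient-diet fragments (median 22). Among these, Pearson's r of the log2 pileups was 0.09 and Spearman's rho 0.08, a description over peaks that share both libraries and a narrow range set by the peak threshold. Over all 1406 sites r was 0.67 and rho 0.22, values that include a few tall sites. Of the 572 sites, 10 had a ratio of pileups above the 2.03 ratio of backgrounds, and the median ratio was 1.39. In units of the background, the median summit was 6.03 times background with the normal diet and 4.09 times with the deficient diet, where the lowest peaks in the whole lists at that background stood at 4.15 and 2.97 times.

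**Figure D1:**
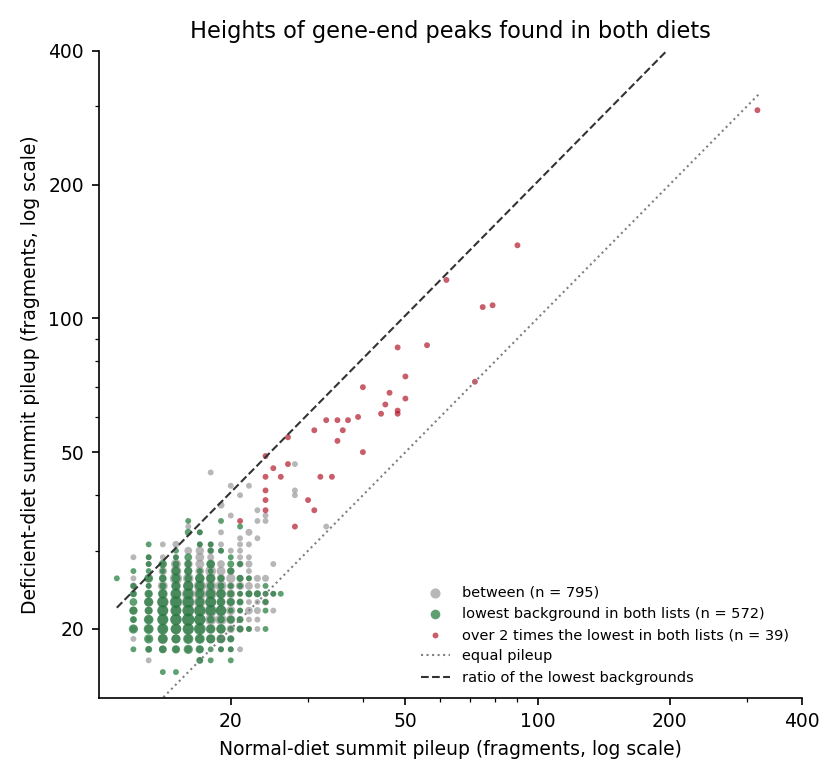
Summit pileup of each of the 1406 gene-end sites in the normal-diet list (x axis, fragments, log scale) against its partner in the deficient-diet list (y axis, fragments, log scale), with larger dots for more sites at the same pair of values. Green dots are the 572 sites at the lowest background in both lists, red dots the 39 sites with more than 2 times that background in both, and grey dots the rest. The green sites form a block of at most 26 and 35 fragments. The tallest normal-diet site is red, and some grey sites, such as Gm12892 at 28 and 47 fragments, also stand above the block.

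The tallest sites had raised backgrounds. In 39 sites (2.77%) the background exceeded 2 times its lowest value in both lists, and these sites had 21 to 317 normal-diet fragments (median 36) and 34 to 294 deficient-diet fragments (median 59). Relative to background they were lower, at a median of 4.03 and 3.02 times. Of them, 35.9% lay at an end of a protein-coding gene, against 73.3% of the 572 sites at the lowest background. In the normal-diet list alone, 2.84% of the shared sites had such a background, against 0.813% of the gene-end peaks with no partner; in the deficient-diet list the values were 3.53% and 0.675%. The part of the raised background in the height of these sites was not tested.

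The 20 best placed sites reflected this. In 13 of the 20 the background was over 2 times the lowest in both lists, 11 lay at an end of a pseudogene and 7 at an end of a protein-coding gene. Chromosomes 4 and 8 held 5 each. The first place went to Gm13238, a transcribed pseudogene on chromosome 4 (peak chr4:145836865-145837558), with 56 normal-diet fragments over a background of 8.99 and 87 deficient-diet fragments over 13.6. Gm13241, a pseudogene on the same chromosome, had 50 and 74 fragments, and Gm6216 on chromosome 1 had 62 and 122 fragments. Many of these loci may have near-identical copies elsewhere in the genome, and how reads from copies were assigned is not given in the sources used here, so their values are uncertain.

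Few protein-coding genes with a known role stood among the 20. Sec14l2, which encodes a lipid-binding protein, had a site 75 bp inside its start with 25 and 28 fragments. A site 660 bp upstream of Tmprss2, which encodes a membrane serine protease, had 22 and 33 fragments at near-lowest background (2.79 and 6.13). AU041133, printed above, had 21 and 28 fragments at the lowest background in both lists. The small nucleolar RNA gene Gm26021 had sites on both sides of its span, with 21 and 34 fragments at the better one.

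With attention limited to sites at the lowest background in both lists, a choice added after the values were seen, the 20 best placed were examined. Of these 20, 14 lay at an end of a protein-coding gene, a share close to the 73.3% of all such sites, with 18 to 24 normal-diet and 25 to 35 deficient-diet fragments. Trib1, a pseudokinase gene, had 20 and 28 fragments at a summit 273 bp inside one end of its span. Foxb1, a forkhead transcription factor gene, had 20 and 27 fragments, with the normal-diet summit 927 bp inside one end of its span. The partner's summit lay 310 bp further in, more than 1 kb from that end. Irf1, an interferon regulatory factor gene, had 18 and 31 fragments at a summit 58 bp inside its start, and Sall4, a zinc-finger transcription factor gene of early development, had 19 and 30 fragments. Adam12, a membrane metalloprotease gene, had 19 and 25 fragments just outside one end of its span, and Spin2d on the X chromosome had 24 and 25.

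Sites in both diets lay mainly at gene starts. The reference tables give strand for a nearby gene at 1000 of the 1406 sites, and at 793 of these (79.3%, 76.7 to 81.8%) the nearest end was the start. The share was 77.8% (76.0 to 79.4%) for normal-diet peaks with no partner and 69.9% (68.2 to 71.5%) for deficient-diet peaks with no partner. The rule treated both ends alike, so this split was not part of the selection. Which end is nearest could not be said for the other 406 sites.

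At gene starts the summits sat inside the gene more often than upstream. Of the 793 start sites, 604 (76.2%, 73.0 to 79.1%) had the summit inside the gene, against 73.1% (71.0 to 75.1%) and 70.9% (68.9 to 72.8%) for normal-diet and deficient-diet peaks with no partner. The median summit lay 229 bp inside, against 188 bp in both comparison sets. The fullest 100-bp bins were those 300 to 400 bp inside, with 102 sites (12.9%), and 200 to 300 bp inside, with 101 sites (12.7%). In the 300 to 400 bp bin the peaks with no partner had 8.48% (normal diet) and 8.71% (deficient diet). In the 100 to 200 bp bin the order was the other way, with 10.7% of the sites against 13.2% and 11.5%. When every start listed for a gene was used instead of the end of the span, a choice made after the values were seen, 72.4% of summits lay inside and the median fell to 170 bp.

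At gene ends proper the sites also lay inside, and the end itself was almost empty. Of 207 such sites, 146 (70.5%) had the summit inside the gene, with a median 378 bp before the end. Only 3 sites (1.45%) fell in the last 100 bp of the gene and 1 (0.483%) in the first 100 bp beyond it. Peaks with no partner at this end were alike, with 69.4% (normal diet) and 68.8% (deficient diet) inside the gene. Their shares were 2.47% and 2.16% in the last 100 bp, and 0.951% and 1.73% in the first 100 bp beyond.

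**Figure D2:**
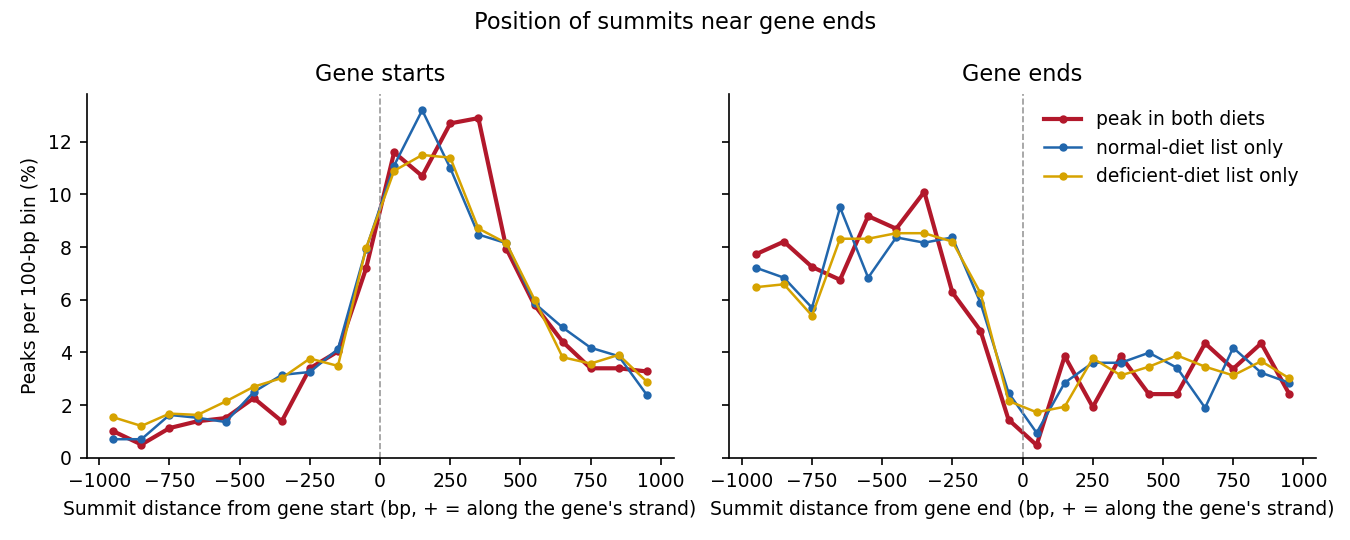
Share of peaks in each 100-bp bin (y axis, %) by distance of the summit from the gene start (left) or the gene end (right) in bp along the gene's strand, for 793 and 207 sites in both diets (red), and for gene-end peaks of the normal-diet (blue) or deficient-diet (yellow) list with no partner. All 3 sets rise just inside the start, the red set reaching 12.9% at 300 to 400 bp, and dip at the gene end.

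Most sites belonged to 1 gene and to protein-coding genes. Of the 1406 sites, 1143 (81.3%) lay near 1 gene, 252 near 2 and 11 near 3 or more, and 1064 (75.7%) lay at an end of a protein-coding gene. A place between the starts of 2 genes on opposite strands, or near both, was held by 133 sites (9.46%, 7.98 to 11.1%), against 10.7% (9.66 to 11.8%) of normal-diet and 6.68% (5.98 to 7.45%) of deficient-diet peaks with no partner. These are shares of all peaks and so lower limits, since such places are seen only where strand is known. A gene of known strand lay near 1000 of the 1406 sites, and near 2366 of 3321 and 3074 of 4593 peaks with no partner. Counted by gene, 1631 of 49550 gene spans (3.29%) had a site. These were 1154 of 21627 protein-coding genes (5.34%), 269 of 12697 long noncoding RNA genes (2.12%), 135 of 9852 pseudogenes (1.37%) and 23 of 476 transcribed pseudogenes (4.83%). For protein-coding genes the share with a gene-end peak of any kind outside the crowded bins was 16.8% (normal diet) and 19.2% (deficient diet).

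The promoter windows under these sites were rich in CpG. RefSeq promoter windows run from 250 bases before to 50 bases after a gene start, and 199 windows of 191 genes held a summit of a site. Their GC content had a median of 64.0%, against 53.0% over all 32619 windows, and their CpG count had a median of 24, against 7. Windows with at least 15 CpG made up 79.4% (73.1 to 84.8%) of those with a site and 34.9% of all windows. The share was 76.4% (72.6 to 80.0%) for windows with a normal-diet summit only and 71.3% (67.2 to 75.1%) for those with a deficient-diet summit only, so most of this composition went with having a peak of either kind. The part of base composition in where peaks were called was not tested.

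The share of these windows with a VDR half-site held that of all windows within its interval. A half-site was counted where a window held AGGTCA on either strand, and equally where it held AGTTCA instead, where it held GGGTCA, or where the letters were GGTTCA. One was present in 79 of 199 windows (39.7%, 32.8 to 46.9%), against 43.8% of all windows, 36.3% with a normal-diet summit only and 38.1% with a deficient-diet summit only. The DR3 layout of any pair of these half-sites was found in 0 of 199 windows, which allows a share of up to 1.51%, and in 13 of all 32619 windows (0.0399%). The search covers these letters in this window only, and peaks outside promoter windows were not searched.

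The GC box, ETS, E-box and NRF1 motifs had higher shares in these windows than over all windows. The GC box GGGCGG, the element of Sp/KLF factors, was in 59.3% (52.1 to 66.2%) of windows with a site and 35.9% of all windows. The ETS motif CCGGAAG was in 22.1% (44 of 199) against 8.92%, the E-box CACGTG in 15.1% (10.4 to 20.8%) against 7.20%, and the NRF1 motif in 6.53% (3.52 to 10.9%) against 1.98%. Windows with a summit in only one list had these shares: 53.9% and 60.3% for the GC box and 24.5% and 19.2% for ETS, in normal-diet and deficient-diet order. The E-box was in 10.4% and 9.51% of them and NRF1 in 4.25% and 3.17%, and for each the intervals overlap that of the shared sites. With peaks at the lowest background only, NRF1 fell to 1 of 73 windows (1.37%), below its share of all windows. Each of these motifs holds a CpG, and matches were not adjusted for composition.

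The remaining motifs are given beside their shares of all windows. The TATA box TATAAA was in 4.02% (1.75 to 7.77%) of windows with a site against 13.7% of all windows, and the GATA motif AGATAA in 2.01% (0.55 to 5.07%) against 11.2%. The NKX2-5 motif CACTTNA, of a heart transcription factor, was in 11.1% against 11.6%, the CCAAT box in 33.7% against 37.6%, and the AP-1 motif TGANTCA in 5.03% against 7.85%. With a −log10 q of 5 or more in both lists only 20 windows were left, and there CCAAT stood at 50%, AP-1 at 25% and NKX2-5 at 0. YY1 (AAGATGGC) was in 2.51% against 2.76%, the cAMP response element (TGACGTCA) in 1.01% against 1.80%, and ZBTB33 (CTCGCGAG) in 1.51% (0.312 to 4.34%) against 0.926%. The CTCF and MEF2 motifs were in 1 window each (0.503%, against 0.561% of all windows for each), and the ZFP143 motif was in 0, which allows up to 1.51%.

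**Figure D3:**
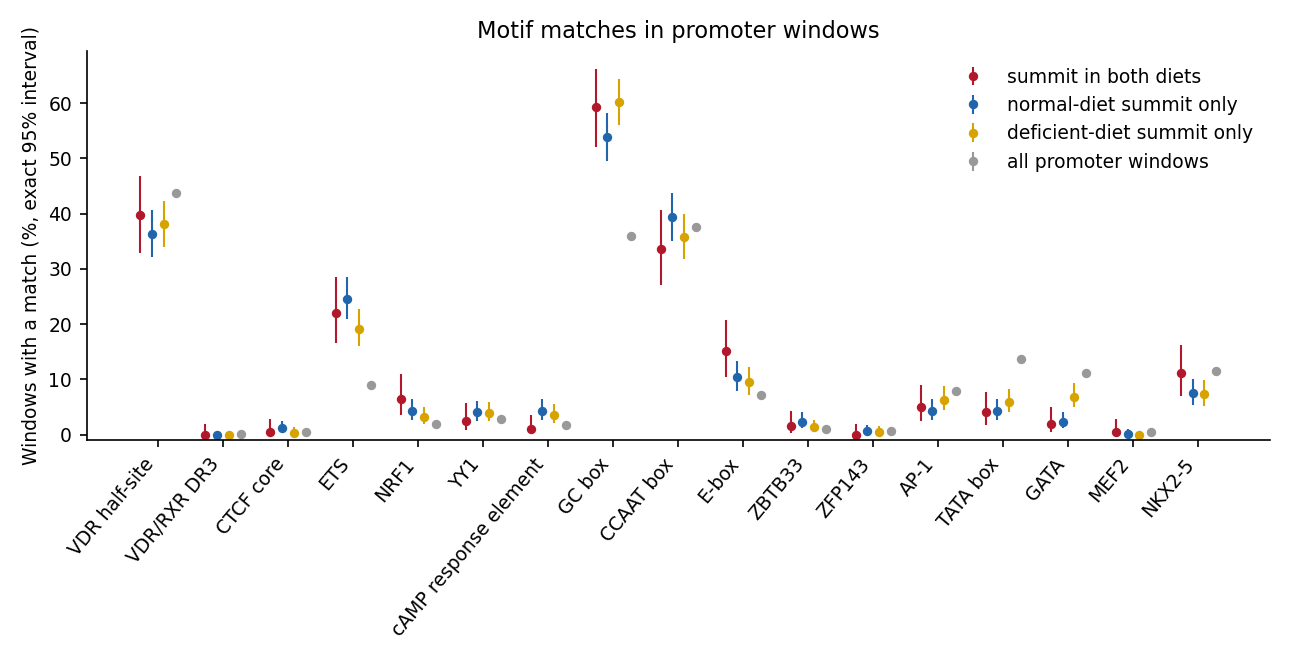
Share of promoter windows with a match (y axis, %) for each of 17 motifs, with exact 95% intervals, in 199 windows with a summit in both diets (red), 518 with a normal-diet summit only (blue), 536 with a deficient-diet summit only (yellow) and all 32619 windows (grey). The GC box and ETS stand above the grey dots in all 3 sets with a summit, the VDR half-site does not, and DR3 is at 0 in the 3 sets.

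Genes of the vitamin D pathway were too few to tell whether they had sites more or less often than other genes. Of 20 genes for VDR, its partners and vitamin D metabolism, 1 had a site (5%, 0.127 to 24.9%), a wide interval that holds the 5.34% of all protein-coding genes. It was Cyp27a1, which encodes a mitochondrial sterol 27-hydroxylase that can also 25-hydroxylate vitamin D. Its site (chr1:74713627-74713878, place 48 of 1406) had 19 fragments with the normal diet and 28 with the deficient diet, with summits 22 bp apart, 572 bp inside the gene. It was not kept with a 500-bp window, with bins of 5 or more peaks left out, or with lowest-background peaks only. With a 3-kb window 2 of the 20 genes had a site, and with no bins left out also 2. Another normal-diet gene-end peak of Cyp27a1, taller at 24 fragments, had no partner. In the same list, Vdr and Lrp2 had a gene-end peak in the deficient-diet list only (24 and 19 fragments), and Pdia3 in the normal-diet list only (15 fragments). Here and below, gene-end peaks of single diets are counted outside the crowded bins.

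Of 20 classical vitamin D target genes, 1 had a site (5%, 0.127 to 24.9%), again a wide interval that holds 5.34%. It was Thbd. Thbd encodes thrombomodulin, an anticoagulant receptor of endothelium. It had 19 and 24 fragments, but the summits lay 643 bp apart. The site was lost with summits within 100 bp, with overlap by 50% of both peaks and with a 500-bp window. With a 3-kb window 2 of the 20 target genes had a site. Counting each list alone, 2 targets (10%) carried a normal-diet peak at a gene end and 5 (25%) a deficient-diet peak, beside 16.8% and 19.2% of all protein-coding genes. Bglap, Calb1, Trpv6 and Nfatc1 had a gene-end peak in the deficient-diet list only, and Tnfsf11, the gene for the osteoclast factor RANKL, in the normal-diet list only.

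Heart genes held no site. None of 30 heart transcription factor genes, 30 sarcomere genes and 20 genes of calcium handling and ion channels had one, 0 of 80 in all. This allows a share of up to 3.75% by the limit of 3 counts, or 4.51% by the exact interval used for the other lists, against the 5.34% background. They did have gene-end peaks in single lists: 10 of the 80 (12.5%) with the normal diet and 19 (23.8%) with the deficient diet, beside 16.8% and 19.2% of all protein-coding genes. Gata5, Tbx5 and Tpm2 had peaks in both lists that did not overlap, with summits 9203, 87503 and 722 bp apart. Outside crowded bins, Gata4, the cardiac GATA factor gene, had 2 gene-end peaks of 24 fragments in the deficient-diet list and none in the other. Gata6 had 1 of 19 fragments in the normal-diet list and none in the other. With 1 library per diet such differences were not tested. Widening the window to 3 kb gave 2 heart transcription factor genes, 2 sarcomere genes and no calcium or channel gene, and with no bins left out 1 heart transcription factor gene had a site.

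Marker genes of the cell types in the ventricle are too few to set against the 5.34% background. No site lay at any of 9 cardiomyocyte, 5 endothelial, 6 fibroblast, 4 epicardial, 4 smooth muscle or 4 macrophage marker genes. Of 4 erythroid markers, Hba-a1, an alpha-globin gene, had a site with 16 and 18 fragments that rests on an overlap of 1 bp. Hba-a1 has a near-identical copy beside it, so its reads are uncertain.

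Among genes of chromosome structure, 3 of 28 for cohesin, condensin, CTCF and the lamina had a site (10.7%, 2.27 to 28.2%), an interval that holds the 5.34% background. The count was 1 with overlap by 50% of both peaks or with summits within 100 bp, and 0 with a −log10 q of 5 or more. Ncapg and Ncapg2 encode subunits of the condensin I and condensin II complexes that compact chromosomes. Ncapg had 16 and 23 fragments with its normal-diet summit 97 bp upstream of the start and the partner's summit 394 bp away, and Ncapg2 had 17 and 19 fragments 397 bp inside the start, with summits 18 bp apart. Lmna, which encodes lamin A and C of the nuclear lamina, had 17 and 23 fragments, with the normal-diet summit 950 bp before its end. The partner's summit lay 427 bp away and more than 1 kb from that end. The deficient-diet peak counted at an end of Lmna was another one, of 22 fragments. Outside the crowded bins, Smc3, a cohesin subunit gene, had a deficient-diet gene-end peak only. Ctcf had no gene-end peak there in either list.

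Genes of histone modification and the cell cycle gave a handful. Of 30 Polycomb and histone enzyme genes, Kdm5a, a histone demethylase gene, had a site of 16 and 22 fragments, and Kat2a, a histone acetyltransferase gene, one of 12 and 22. Of 32 cell cycle genes, 3 had sites (9.38%, 1.98 to 25%, which holds the 5.34% background). Ccnb2 (cyclin B2) had 18 and 25 fragments 71 bp inside its start, and Mcm6, of the replicative helicase, had 15 and 23 fragments 155 bp inside its start. Plk1, a mitotic kinase gene, had a site at each end: 16 and 24 fragments 141 bp inside the start, and 20 and 21 fragments 711 bp before the end.

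Histone genes, many of which lie in dense clusters, had 8 of 74 with a site (10.8%, 4.78 to 20.2%), and the 5.34% background lies within that interval. The 8 were H1f2, H1f3, H1f4, H3c3, H3c13, H3c15, H4c17 and H2bc18, of which H3c13 and H2bc18 share 1 peak. H3c3 had 20 and 26 fragments, H1f4 16 and 28, and H4c17 20 and 21. The number was 2 with bins of 5 or more peaks left out, 3 with lowest-background peaks only, 5 with summits within 100 bp, 1 with a −log10 q of 5 or more and 13 with a 3-kb window, and near-identical histone copies make single genes uncertain.

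Genes for making protein and energy stood near the background of 5.34%, which lay within the interval of each list. Cytosolic ribosomal protein genes had 7 of 85 (8.24%, 3.38 to 16.2%), among them Rps10 (20 and 25 fragments), Rpl28 (21 and 25) and Rpl36 (16 and 23), with 6 of the 7 sites at the start and Rpl36 of unknown strand. Translation factor genes had 5 of 64, including Eif6 with a site near each end (19 and 20 fragments at one, 14 and 22 at the other). Aminoacyl-tRNA synthetase genes had 3 of 35 (Aars, Ears2 and Vars2), and the respiratory chain had 6 of 84, such as Cox7c (17 and 24 fragments, summits 10 bp apart) and Ndufs4 (17 and 25). Mitochondrial ribosomal protein genes had 2 of 78 and the proteasome 1 of 49. RNA polymerase II and Mediator genes had 2 of 82, of which Med17 was high in the normal-diet list at 23 fragments and had 23 in the other. Splicing factor genes had 0 of 55, which allows up to 5.45%, and collagens 0 of 44, which allows up to 6.82%.

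Families of regulators and receptors spanned the widest range. C2H2 zinc-finger genes named Zfp had 27 of 397 (6.80%, 4.53 to 9.74%), and 3 of these, Zfp600, Zfp979 and Zfp991 on chromosome 4, had backgrounds over 2 times the lowest in both lists. Hox genes, which set position along the body axis, had 5 of 39 (12.8%, 4.30 to 27.4%, which holds the 5.34%): Hoxd3 (21 and 25 fragments), Hoxd1 (19 and 21), Hoxd12 (13 and 29), Hoxa3 (15 and 24) and Hoxc6 (19 and 21). The Hox count was 0 with bins of 5 or more peaks left out, 1 with a −log10 q of 5 or more, 2 with overlap by 50% of both peaks or with summits within 100 bp, 3 with lowest-background peaks only, and 10 with a 3-kb window. Rab GTPase genes had 5 of 59, solute carriers 18 of 369 (4.88%) and ubiquitin ligase and conjugating enzyme genes 5 of 134 (3.73%). Olfactory receptor genes, silent in most tissues and poor in CpG at their starts, had 4 of 1106 (0.362%, 0.0986 to 0.923%), against 1.08% with a gene-end peak of the normal diet and 1.72% with one of the deficient diet. Over all 31 lists 109 of 2981 genes had a site, a lower share than the 5.34% of all protein-coding genes. The 1106 olfactory receptor genes are among the 2981. The sites of the 109 genes had 12 to 34 normal-diet fragments (median 17) and 18 to 49 deficient-diet fragments (median 23).

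**Figure D4:**
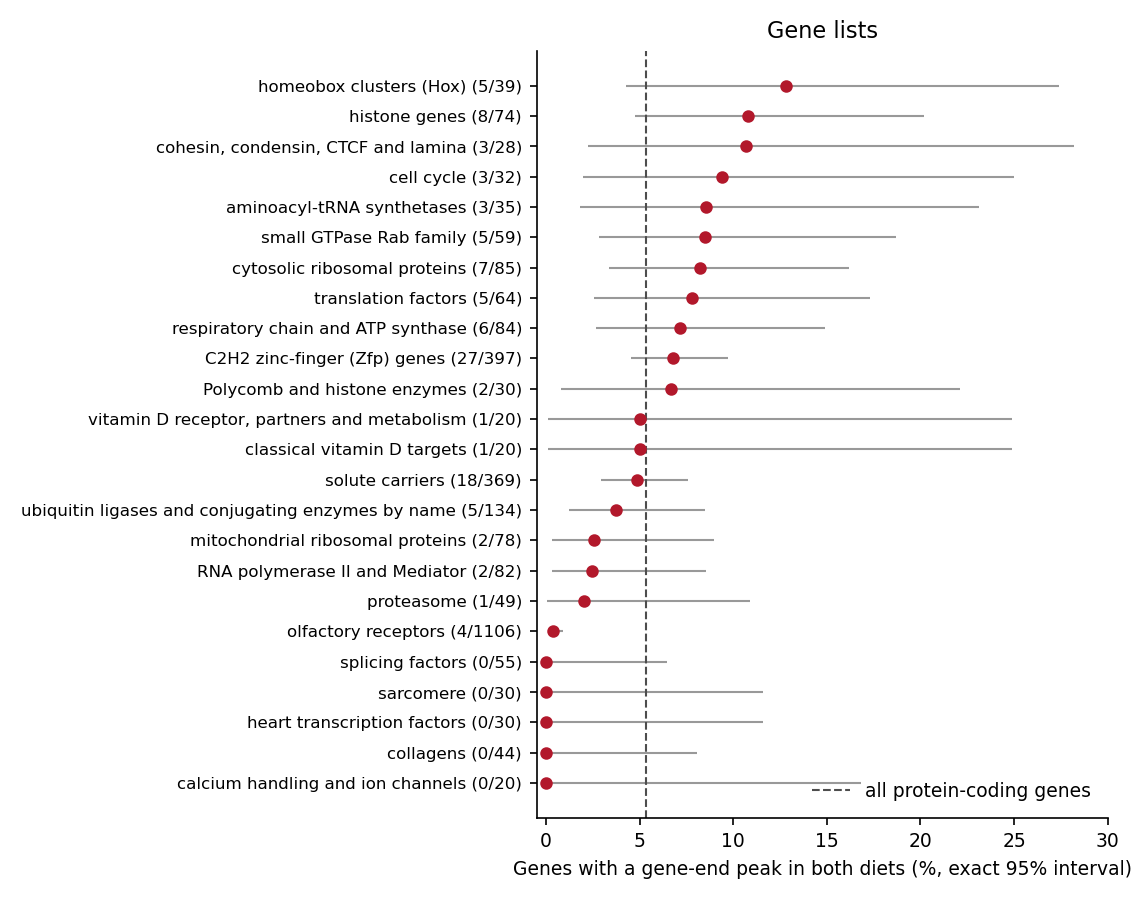
Share of the genes of each list with 20 or more genes that had a gene-end site in both diets (x axis, %, dots), with exact 95% intervals (grey bars) and the 5.34% of all protein-coding genes (dashed line); counts stand beside each name. Hox and histone genes stand at 12.8% and 10.8%, with intervals that hold the line and with counts of 0 of 39 and 2 of 74 when bins of 5 or more peaks are left out; the heart lists are at 0, and the interval of the olfactory receptors alone lies wholly below the line.

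The X chromosome had few sites. It held 13 of the 1406 (0.925%, 0.493 to 1.58%), while it has 5.07% of the gene spans and 2.27% of the normal-diet peaks outside crowded bins. Sites per 100 gene spans came to 0.518 on X and ranged from 2.43 on chromosome 7 to 3.95 on chromosome 8 among the autosomes. Of the 39 normal-diet gene-end peaks on X, 33.3% had a partner, so the low count was already present in the single list. Why it was low there was not tested.

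**Figure D5:**
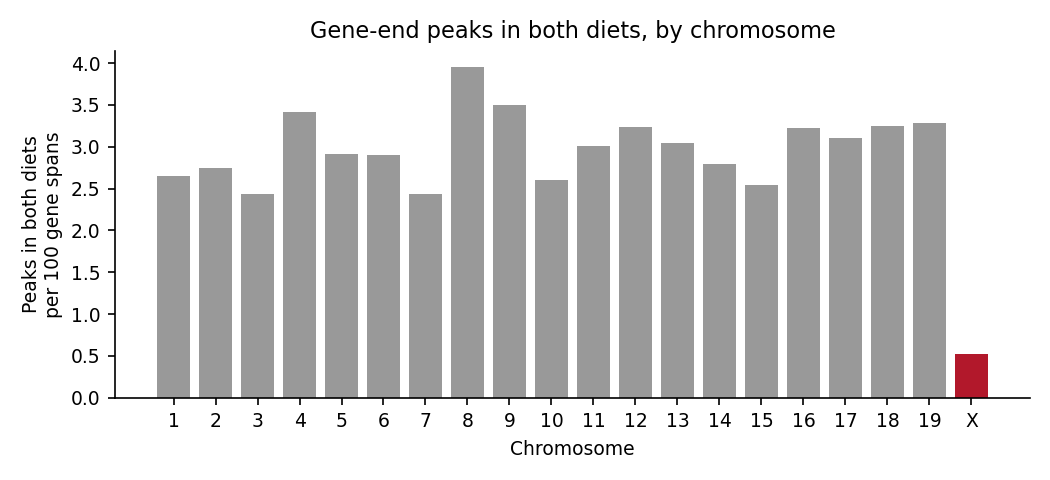
Gene-end sites in both diets per 100 RefSeq gene spans (y axis) on each chromosome (x axis). The autosomes lie between 2.43 and 3.95 and X (red) at 0.518.

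MicroRNA genes had a site less often than gene spans as a whole. Of 1228 microRNA genes, 22 (1.79%, 1.13 to 2.70%) lay within 1 kb of a site, against 3.29% of all gene spans. That share mixes kinds of gene: 5.34% of protein-coding genes, 2.12% of long noncoding RNA genes and 1.37% of pseudogenes. The 1-kb windows at the 2 ends of a short gene overlap, so it has fewer bases within reach of the rule. The shares were not adjusted for gene length. The mature sequences of a few microRNAs in well studied families, chosen after their values were seen, are shown from RefSeq. The seed, bases 2 to 8, is in capitals.
mmu-miR-9-5p (Mir9-1, chromosome 3): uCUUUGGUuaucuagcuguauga
mmu-miR-431-5p (Mir431, chromosome 12): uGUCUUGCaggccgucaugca
mmu-miR-433-3p (Mir433, chromosome 12): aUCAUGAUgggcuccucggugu
mmu-miR-671-5p (Mir671, chromosome 5): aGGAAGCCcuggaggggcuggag
The 4 seeds differ from one another. Mir9-1, known from the developing nervous system, shared 1 site with Mir3093 and with Gm25641, a microRNA gene on the other strand within the Mir9-1 span. That site, counted for each of these genes, had 16 and 21 fragments and a summit 503 bp from the Mir9-1 span. Mir431 and Mir433, of the imprinted Dlk1-Meg3 region, shared 1 site with 21 fragments in each list, 277 and 901 bp away. Mir671 had 15 and 22 fragments 531 bp away.

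Of 1340 small nucleolar RNA genes 11 had a site (0.821%, 0.41 to 1.46%), also below the 3.29% of all gene spans. These genes are short too, and this share was not adjusted for gene length. Among the 11 were 3 copies of the imprinted Snord116 cluster. Snord116l8 had 35 and 59 fragments, Snord116l7 23 and 35, and Snord116l4 33 and 59, over normal-diet backgrounds of 7.27, 4.57 and 9.84 fragments. These copies are near-identical, so their counts are uncertain. Peg3os, antisense to the imprinted gene Peg3, had 19 and 21 fragments at the lowest normal-diet background.

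Values just inside and just outside the limits of the rule are given as a description. The site farthest from a gene end, at Mycl, lay 1000 bp away with 15 and 22 fragments, and a shared peak just outside, at Gm36118, lay 1008 bp away with 17 and 19 fragments. Peaks at Gtse1 and Tex12 touched a deficient-diet peak without overlap and were left out, with 15 and 13 normal-diet fragments. In bins that held 9 peaks of the fuller list there were 75 sites with a median of 17 fragments, and 60 shared gene-end peaks in bins with 10 were left out, with a median of 16. In all crowded bins, 265 shared gene-end peaks were left out.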

How the data were processed

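Groups were taken from the tissue labels. The authors deposited 1 narrowPeak list per library on mm10, per the file headers, and the submitters' processing notes name MACS2 and SAMtools; aligner, threshold, control and antibody are not given in the sources used here. In that layout each peak carries a deposited fold enrichment, a ratio over background at the summit, and deposited −log10 values for both its p-value and its q-value. These values are the authors' own, and served to rank, filter and describe each list by itself. In the normal-diet list 1 of 23457 lines was unreadable. The lowest −log10 q was 2.00 and 2.01 in the lists.

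The summit pileup and background were recovered from fold enrichment, taken as pileup plus 1 over background plus 1, and a Poisson −log10 p. The misfit was at most 0.000248, against at least 0.00997 for the next whole number. No header states this reading. Total reads are not in the lists, so depth is known only through the backgrounds. Gene spans (49550), promoter windows and microRNAs came from RefSeq, GRCm38.p6, without exons. Strand was known for 79.9% of protein-coding genes; promoter windows of one chromosome were not used here. Shares carry exact Clopper-Pearson 95% intervals. In the text a count of 0 is given the limit of 3 counts, which is tighter than the exact upper bound drawn in the figures. Python 3.11.15, numpy 2.4.6, pandas 2.3.3 and scipy 1.17.1 were used, and the placement and overlap steps were tested on simulated peaks.

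The sites, 31 gene lists and 17 motifs were chosen with earlier results of these data known. Letters of some longer motifs were rewritten after the files were read. Named were the 20 best placed sites (by the worse of the ranks by −log10 q), up to 4 genes a list by that rank, the 8 best placed promoters, and the sites at each limit of the rule; others were named after their values were seen. Alternatives changed the q threshold, overlap, window, bin rule, gene set and background.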

Additional observations from a re-analysis of the deposited data

How the results depend on the processing

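With 1 library per diet, no library could be left out and no test run. No paired analysis was possible because the labels hold 1 normal-diet and 1 deficient-diet library. Over 57 results, 514 values were recomputed: 368 kept to the interval of the reported value (for counts, to within 1.5 times of it) and 146 moved. The 1406 sites became 197 with a −log10 q of 5 or more in both lists, 909 with overlap by 50% of both peaks, 731 with summits within 100 bp, 2215 with a 3-kb window, 878 with bins of 5 or more peaks left out and 575 with peaks at the lowest background only; here any partner of a site could meet the setting, so counts differ slightly from those of the best partner. In that order the genes, 1631, became 226, 1066, 860, 2765, 1021 and 662, and 1073 with a 500-bp window. The shared part of gene-end peaks, 29.7%, became 12.2% (q), 19.2% (50%), 15.5% (100 bp), 31.5% with no bins left out, 27.6% (bins of 5) and 25.2% (lowest background). The share at gene starts became 74.4% (q), 86.6% (500 bp), 68.3% (3 kb) and 87.6% (bins of 5). The share inside the gene became 72.2% (q), 81.8% with protein-coding genes only and 72.4% with all listed starts. Median pileups became 19 and 26 fragments (q) and 22 in the deficient-diet list (lowest background). VDR half-sites became 30% (q). List genes, 109, became 19 (q), 54 (100 bp), 183 (3 kb), 56 (bins of 5) and 41 (lowest background). Fewer or more peaks enter by construction; otherwise the cause was not tested. Of 432 values of single motifs and lists, 24 moved higher and 87 lower. The use of all listed starts was chosen after seeing the data.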

Other observations

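A small set of genes held more than 1 site. Of the 1631 genes with a site, 48 had 2 or more, 32 of them protein-coding, and Fam234a had 3. Over all sites, 14 deficient-diet peaks were partners of 2 sites, so 2 sites do not always mean 2 separate partners. Neighbouring genes can also hold the same 2 sites, as Klhl28 and Togaram1 did. Besides Plk1, sites stood at the start and at the end of Khk, the fructokinase gene, with 23 and 20 fragments (normal and deficient diet) at the start and 19 and 28 at the end. Nop2, a nucleolar RNA methyltransferase gene, had 17 and 21 fragments at the start and 18 and 24 at the end. Nkx1-1, a homeobox gene, had 19 and 25 at the start and 18 and 24 at the end, and Ccno, a cyclin-family gene, had 16 and 19 at the start and 16 and 22 at the end. Kcnk12, a potassium channel gene, had 19 and 24 at the start and 19 and 21 at the end. All sites given so far in this paragraph lay within the 11 to 26 and 16 to 35 fragments seen where the background was lowest. Apoe, the apolipoprotein E gene, had 2 sites near its end, with 14 and 25 and with 14 and 22 fragments. The genes in this paragraph were chosen after their values were seen.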
